A study of Homo sapiens with 5 samples.

Results

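The enzymes that modify transfer RNA were examined in ribosome footprint libraries of HAP1 cells with and without the ribosomal RNA methyltransferase ZCCHC4. The set was a list of 59 gene symbols for tRNA methylation, pseudouridine, wobble uridine, deamination, dihydrouridine and related enzymes, matched by symbol to the deposited count table. Of these, 56 had a row among the 13638 rows of the table, and all 56 passed the filter on low counts, as did 11205 rows in all. TRMT1, TRMT2A and METTL6 were not analysed here.

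HAP1, an adherent and nearly haploid human line, descends from a chronic myeloid leukaemia. Wild type (2 libraries) was compared with ZCCHC4 knockout (3 libraries), with no treatment named for either genotype and cycloheximide in the lysis and gradient buffers of both. The labels do not say how the knockout was made, how many clones it stands for or whether the libraries came from separate cultures. P-values therefore reflect only how far these libraries spread, and that spread may be technical. Between the wild-type libraries the chi-square per degree of freedom was 1.14, close to counting noise alone. It was 2.97 between knockout replicates 1 and 3, and 27.7 and 24.6 between these and knockout replicate 2. A ribosome footprint is the piece of mRNA shielded by a ribosome, so a count follows both the mRNA level and its translation, and in pooled cells a change in fewer or more cells and a change within each cell cannot be told apart.

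After transcription, tRNAs are modified at many positions. Marks in the anticodon, above all at the wobble base and at the purine just after the anticodon, tune codon reading and hold the reading frame, whereas marks in the body of the molecule mostly stabilise its fold. Enzymes encoded in the nucleus also modify the tRNAs made inside mitochondria, and several act there only. Cytosolic and mitochondrial enzymes are both present among the 56 members, and some, such as PUS1, TRIT1, TRMT5 and NSUN2, act on tRNAs of both kinds.

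Library totals ranged from 4887380 to 5302160 counts in wild type and from 16940732 to 31557573 in the knockout, so depth and genotype moved together. Levels are given as CPM, read counts relative to library size after TMM scaling, and 1 count was worth 0.172 to 0.187 CPM in wild type and 0.0339 to 0.0619 CPM in the knockout. ZCCHC4 itself was at 16.04 and 13.3 CPM in wild type and at 3.85, 3.41 and 4.98 CPM in the knockout, 3.54-fold lower (edgeR adjusted p = 7.27e-05). BCR and ABL1, the genes fused in the parental leukaemia, summed to 7.93 and 8.03 CPM in wild type and 4.88 to 5.31 CPM in the knockout. Of 15 haematopoietic markers 6 had a row, with a summed level of 19.97 to 21.7 CPM in wild type and 6.60 to 8.06 CPM in the knockout, mostly KIT and TAL1, and CD34 had no count in any knockout library. The summed level of 3 mesenchymal markers was 272 and 287 CPM in wild type and 659 to 696 CPM in the knockout. These did not move together: VIM was at a log2 fold change of 1.95 (adjusted p = 3.78e-07) and CDH2 at 0.24 (0.0221), while COL1A1 was lower at -0.83 (0.00586). Of 4 epithelial markers 3 had a row, summing to 145 to 154 CPM in wild type and 135 to 157 CPM in the knockout, with EPCAM at 1.82 (adjusted p = 6.23e-04) and KRT18 at -0.11 (0.366). The part of such differences between the lines in the results below was not tested.

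The tRNA modification enzymes moved in both directions. Of the 56 tested, 19 rose and 15 fell in the knockout, while 22 missed an adjusted p of 0.05 (quasi-likelihood test of edgeR, Benjamini-Hochberg over all 11205 rows). The share that changed, 60.7%, was close to the share of all rows tested, 60%, of which 30.2% rose and 29.8% fell. Changes of 1.5-fold or more comprised 13 rises and 7 falls, against 20.3% and 21.4% of all rows (41.7% in either direction). Changes of 2-fold or more comprised 7 rises and 1 fall, against 10% and 13.1% of all rows (23.2% in either direction). The median log2 fold change, knockout over wild type, was 0.08 over the members and 0.02 over all rows, and the median size of the log2 fold change, called or not, was 0.38 over the members and 0.52 over all rows. Scaled by library totals instead, the median of all rows shifted by -0.22. The members then split into 13 rises and 19 falls, where 62.1% of all rows passed. Without wild-type replicate 1 the median log2 fold change was 0.08 over the members and 0.03 over all rows. Without wild-type replicate 2 these medians were 0.04 and 0.02.

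**Figure D1:**
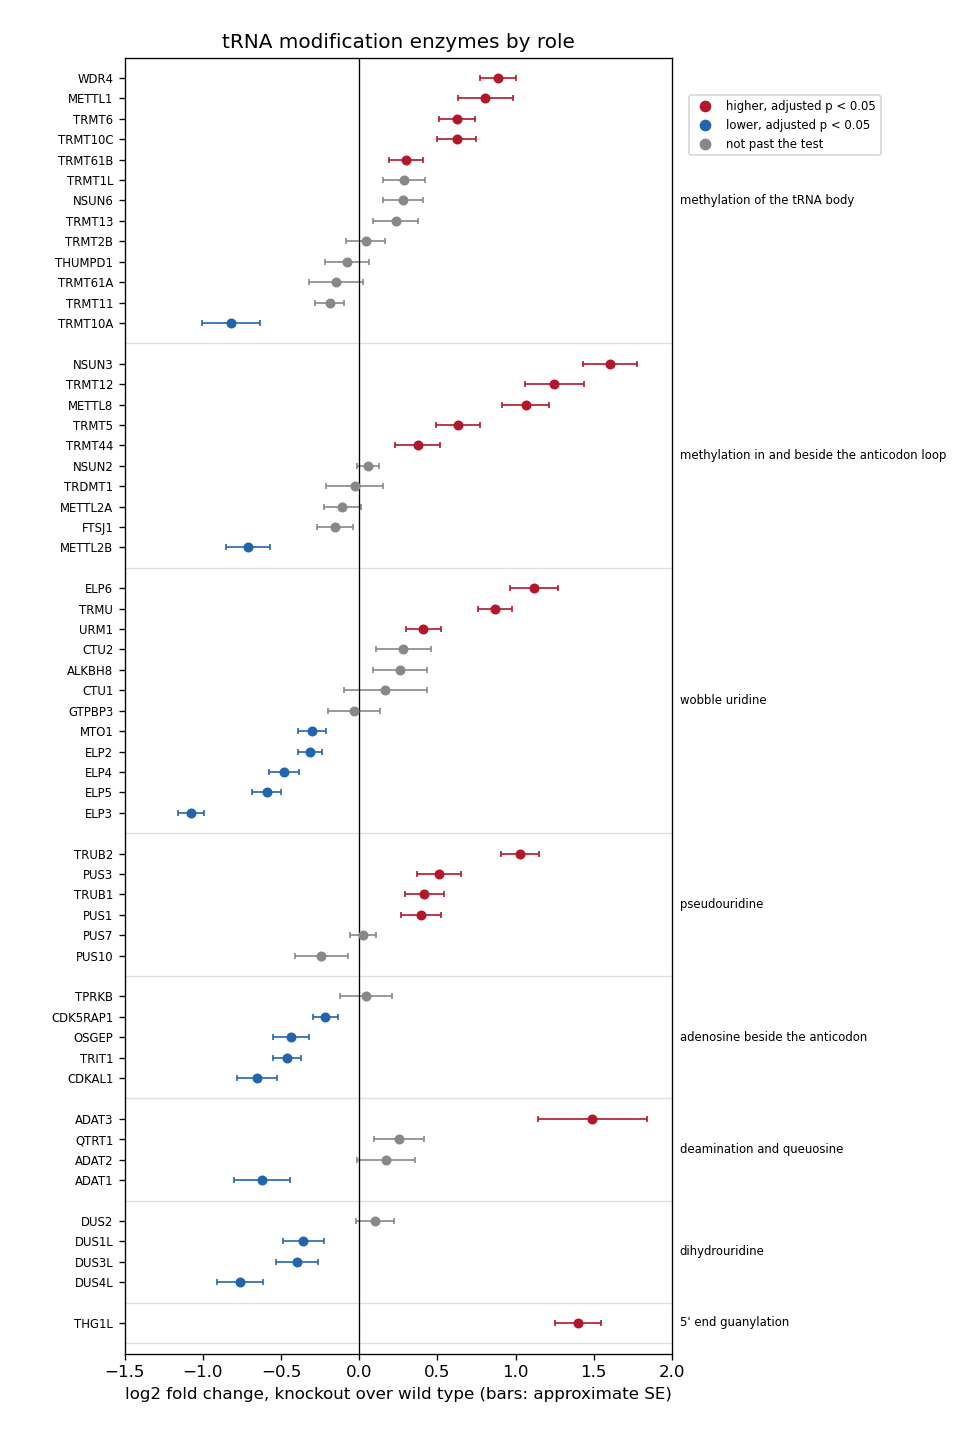
Log2 fold change (knockout over wild type, x axis) of 55 members with approximate SE bars, grouped by role; red and blue points passed the test and grey points did not. The 5 genes grouped under the adenosine beside the anticodon hold no rise, and 3 of 4 dihydrouridine synthases fell. Over all rows tested 30.2% rose and 29.8% fell.

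In 42 members no wild-type value fell among the knockout values, with the knockout above in 25 and below in 17, where 76.4% of all rows did not overlap (38.5% above and 37.9% below). Every member had at least 6 raw counts in each wild-type library, and the most abundant, NSUN2, had 1253 in wild-type replicate 1. Levels in wild type ran from 1.16 CPM for ADAT3 to 215 CPM for NSUN2.

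**Figure D2:**
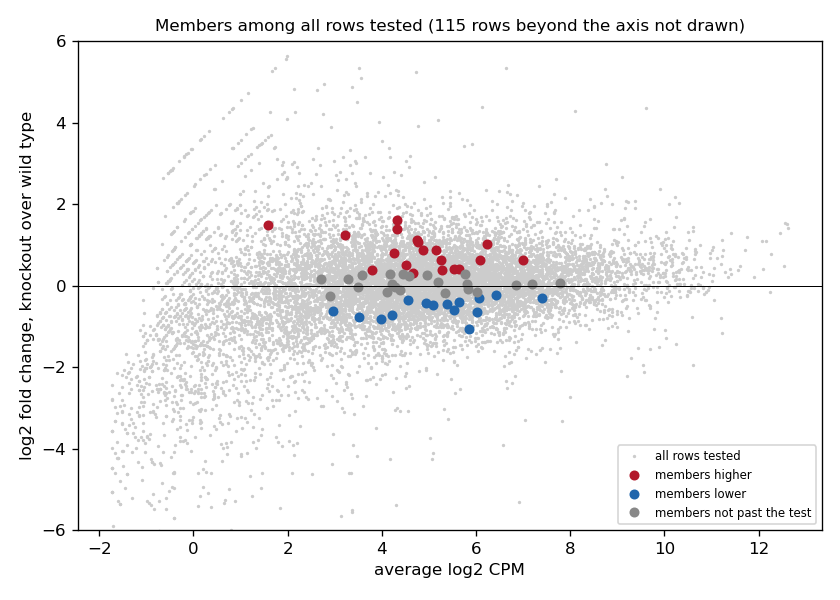
Log2 fold change against average log2 CPM for all 11205 rows tested (grey dots, with 115 rows beyond the axis left out) and for the 56 members (larger points, coloured by call). The members lie at middle levels and between log2 fold changes of -1.08 and 1.60.

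Methylation in and beside the anticodon loop held the largest rise of the set. Of 10 enzymes tested 5 rose, 1 fell and 4 missed the threshold, at a median log2 fold change of 0.21. The shares over all rows were 30.2% rising and 29.8% falling. NSUN3, which makes the 5-methylcytidine at the wobble position of mitochondrial tRNA-Met, was at 7.59 and 8.59 CPM in wild type and at 26.2, 21.1 and 26.1 CPM in the knockout (ENST00000314622, GRCh38 chromosome 3, 94062916 to 94128545, plus strand, 6 exons). All 3 knockout libraries lay far above both wild-type libraries, and NSUN3 rose 3.04-fold (log2 fold change 1.60 ± 0.17, SE, adjusted p = 5.67e-05).

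METTL8, which makes 3-methylcytidine in mitochondrial tRNAs, stood at 14.7 and 16.1 CPM in wild type against 36.5, 28.7 and 30.9 CPM in the knockout. It rose 2.09-fold (1.07 ± 0.15, adjusted p = 2.77e-04), and 19.7% of the 30-base windows of its coding sequence also occur in the pseudogene METTL8P1. TRMT12, an enzyme of wybutosine synthesis on tRNA-Phe, had 5.00 and 3.92 CPM in wild type and 10.8, 10.9 and 10.2 CPM in the knockout. It rose 2.38-fold (1.25 ± 0.19, adjusted p = 4.07e-04) from only 29 and 21 raw counts. TRMT5 makes the 1-methylguanosine after the anticodon that guards the reading frame, and it rose 1.55-fold, from 27.8 and 28.0 to 48.8, 37.0 and 43.3 CPM (0.63 ± 0.14, adjusted p = 0.0036). TRMT44, a ribose methyltransferase of serine tRNAs, was 1.30-fold higher at an adjusted p of 0.0485, and that call was lost without any 1 of wild-type replicates 1 and 2 and knockout replicates 1 and 3 (adjusted p = 0.0734 to 0.197).

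The near-identical pair METTL2A and METTL2B, which make 3-methylcytidine in the anticodon loop of cytosolic tRNAs, gave unlike values. METTL2B was at 25.2 and 25.9 CPM in wild type and at 15.8, 13.3 and 17.3 CPM in the knockout, a 1.64-fold fall (-0.71 ± 0.14, adjusted p = 0.00215). METTL2A was at 21.7 and 22.4 CPM in wild type and at 21.8, 19.4 and 19.97 CPM in the knockout, with overlapping groups (-0.11 ± 0.12, adjusted p = 0.446). Their coding sequences, each of 1134 bases, differ at 15 bases and are 98.7% identical, with a longest shared run of 331 bases. A footprint of about 30 bases therefore often cannot be placed: 69.2% of the 30-base windows of METTL2A occur in METTL2B, and 79.9% of those of METTL2B occur in some other gene. The stretch with the most differences, bases 312 to 371 of the coding sequence in the GENCODE transcripts, is shown because it is among the few places where a footprint tells the genes apart, with capitals at the 3 differing bases.
METTL2A: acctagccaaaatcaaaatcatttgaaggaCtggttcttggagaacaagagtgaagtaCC
METTL2B: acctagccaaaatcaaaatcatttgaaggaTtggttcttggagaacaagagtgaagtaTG
How reads mapping to both genes were counted is not given in the sources used here, so the split between these genes is uncertain. The other members of this group did not pass. The tRNA ribose methyltransferase FTSJ1 was at -0.15 ± 0.11 (adjusted p = 0.274) and the 5-methylcytidine enzyme NSUN2 at 0.05 ± 0.07 (0.532). TRDMT1, also called DNMT2, was at -0.03 ± 0.18 (0.895). Without knockout replicate 2, FTSJ1 was lower at -0.26 (adjusted p = 8.30e-04).

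Among methyltransferases of the tRNA body, both partners of the m7G enzyme were higher. Of 13 enzymes tested 5 rose, 1 fell and 7 missed the threshold, at a median log2 fold change of 0.28. The shares over all rows were 30.2% rising and 29.8% falling. WDR4, the scaffold of the complex, was at 23.3 and 21.8 CPM in wild type and at 39.5, 45.1 and 40.9 CPM in the knockout, a 1.85-fold rise (0.89 ± 0.11, adjusted p = 1.73e-04). METTL1, its catalytic partner, was at 14.7 and 10.1 CPM in wild type and at 19.8, 23.8 and 21.8 CPM in the knockout, a 1.75-fold rise (0.81 ± 0.18, adjusted p = 0.00341). The wild-type libraries of METTL1 were wide apart, and without wild-type replicate 2 it was at 0.57 with an adjusted p of 0.0535. A segment holding 20.5% of its windows also occurs in AC112778.1.

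The m1A enzyme of the T loop is built from TRMT6 and the catalytic TRMT61A, and only the first passed. TRMT6 was at 50.01 and 50.02 CPM in wild type and at 83.0, 67.0 and 80.9 CPM in the knockout, a 1.54-fold rise (0.62 ± 0.12, adjusted p = 0.00147). TRMT61A was at 19.8 and 16.8 CPM in wild type and at 14.3, 19.7 and 15.9 CPM in the knockout, and its groups overlapped (-0.15 ± 0.17, adjusted p = 0.474). The log2 ratio of their counts was 1.33 and 1.57 in wild type against 2.53, 1.77 and 2.34 in the knockout, 0.76 higher. Knockout replicate 2 lay nearest to wild type, and without it TRMT61A was lower at -0.28 (adjusted p = 0.0379).

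TRMT10C, which methylates mitochondrial tRNAs and is a subunit of mitochondrial RNase P, rose 1.54-fold, while its relative TRMT10A, which methylates cytosolic tRNAs, fell 1.77-fold. TRMT10C was at 92.3 and 98.0 CPM in wild type and at 161, 123 and 155 CPM in the knockout (0.62 ± 0.12, adjusted p = 0.00212). TRMT10A was at 23.5 and 22.6 CPM in wild type and at 15.2, 9.91 and 13.6 CPM in the knockout (-0.82 ± 0.18, adjusted p = 0.00404). In both genes the genotypes did not overlap, and knockout replicate 2 was the lowest of the knockout libraries. TRMT10B, from a list read below, was also lower (-1.10 ± 0.27, adjusted p = 0.00698).

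TRMT61B, the mitochondrial m1A enzyme, was 1.23-fold higher (adjusted p = 0.0401), a call lost without any 1 of wild-type replicates 1 and 2 and knockout replicates 1 and 3 (adjusted p = 0.0933 to 0.202), with library totals (0.545) and with DESeq2 (0.127). Among the 7 that did not pass were TRMT1L, a paralog of TRMT1 (0.28 ± 0.13), the 5-methylcytidine enzyme NSUN6 (0.28 ± 0.13) and the ribose methyltransferase TRMT13 (0.23 ± 0.14). Without knockout replicate 2 these were higher, at 0.39, 0.34 and 0.33, with adjusted p values of 3.49e-06, 0.00446 and 0.00437. TRMT11, which methylates guanosine with TRMT112, was at -0.19 ± 0.09, THUMPD1, the adaptor for tRNA acetylation, at -0.08 ± 0.14, and the mitochondrial TRMT2B at 0.04 ± 0.12. With library totals TRMT11 was lower at -0.41 (adjusted p = 0.00417).

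**Figure D3:**
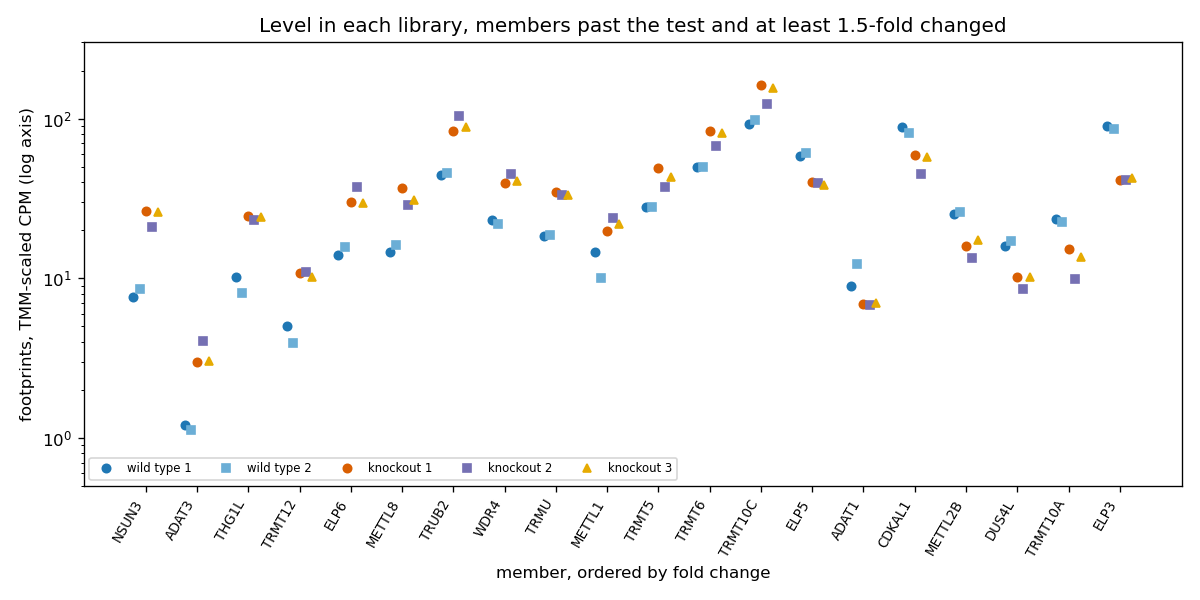
Footprint level in each library (TMM-scaled CPM, log axis) for the 20 members past the test with at least a 1.5-fold change, ordered by fold change; blue symbols are the wild-type libraries and the other symbols the knockout libraries. The 20 were picked by test and fold change in these same libraries, which favours groups that do not overlap, and none of them overlaps. Among all rows tested 76.4% do not overlap. NSUN3 and ELP3 stand at the ends of the order.

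The wobble uridine pathway did not move as a block. Elongator, a complex of several subunits, adds the first group to the wobble uridine of cytosolic tRNAs, ALKBH8 completes the methyl ester, and CTU1 and CTU2 add sulfur that is carried by URM1. Of 13 genes tested 3 rose, 5 fell and 5 missed the threshold, at a median log2 fold change of 0.03. The shares over all rows were 30.2% rising and 29.8% falling. Among the Elongator subunits described here, ELP2, ELP3, ELP4 and ELP5 fell and ELP6 rose.

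ELP3, the catalytic subunit, had the lowest fold change of the whole set (ENST00000521015, GRCh38 chromosome 8, 28090231 to 28191156, plus strand, 15 exons). It was at 90.0 and 85.5 CPM in wild type and at 41.0, 41.3 and 42.6 CPM in the knockout, a 2.11-fold fall (-1.08 ± 0.08, adjusted p = 9.43e-06). The gene lies on that chromosome below 50 Mb, a stretch chosen after its values were seen, where 104 of 143 rows tested fell, 9 rose and the median log2 fold change was -0.90. No other tested member lies there. The part of that stretch in the fall of ELP3 was not tested.

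The accessory subcomplex of Elongator holds ELP4, ELP5 and ELP6, and these went in opposite directions. ELP5 fell 1.51-fold, from 57.9 and 61.0 CPM to 40.2, 39.7 and 38.4 CPM (-0.59 ± 0.09, adjusted p = 4.27e-04). ELP4 fell 1.40-fold, from 40.9 and 43.5 CPM to 29.98, 30.3 and 30.3 CPM (-0.48 ± 0.10, adjusted p = 0.002). ELP6 rose 2.17-fold, from 13.97 and 15.7 CPM to 30.2, 37.2 and 29.5 CPM (1.12 ± 0.15, adjusted p = 2.47e-04). None of these genes had overlapping groups, and the log2 ratio of ELP5 to ELP6 counts went from 2.05 and 1.95 in wild type to 0.41, 0.10 and 0.38 in the knockout, 1.70 lower.

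ELP2, a scaffold subunit, was at 192 and 193 CPM in wild type and at 157, 160.1 and 148 CPM in the knockout, with no overlap. It was 1.24-fold lower (-0.32 ± 0.08, adjusted p = 0.00566), a call lost without wild-type replicate 1 (0.062), without replicate 2 (0.0633) and with the replicate block (0.0854).

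Per kilobase of coding sequence, ELP6 had the lowest level of these subunits in both wild-type libraries, at 17.5 and 19.6 CPM per kilobase, and ELP2 the highest, at 77.7 and 78.0. ELP4, ELP3 and ELP5 lay between, at means of 33.1, 54.9 and 62.8. In the knockout libraries ELP4 was lowest, at 23.5 to 23.8 CPM per kilobase, followed by ELP3 at 25.7 to 26.6, and ELP6, at 37.0 to 46.6, overlapped with ELP5, at 40.5 to 42.4. ELP2 was again the highest, at 59.6 to 64.6.

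Downstream of Elongator, the sulfur carrier URM1 was 1.33-fold higher, from 36.6 and 39.8 CPM to 51.2, 46.1 and 54.4 CPM (0.41 ± 0.11, adjusted p = 0.0105), a call lost without wild-type replicate 1 (0.115), with library totals (0.149) and with the replicate block (0.0681). The thiolation partners did not pass. CTU1 was at 7.59 and 10.3 CPM in wild type and at 8.17, 13.3 and 8.94 CPM in the knockout (0.17 ± 0.27), and CTU2 was at 16.2 and 14.9 CPM against 16.7, 22.8 and 17.8 CPM (0.28 ± 0.17). Both had their highest value in knockout replicate 2. ALKBH8 was at 0.26 ± 0.17 (adjusted p = 0.214), and without knockout replicate 2 at 0.33 (0.0396).

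In mitochondria, GTPBP3 and MTO1 modify the wobble uridine together and TRMU adds the sulfur. TRMU was at 18.5 and 18.7 CPM in wild type and at 34.8, 33.4 and 33.3 CPM in the knockout, a 1.82-fold rise with tight replicates (0.87 ± 0.11, adjusted p = 1.42e-04). MTO1 was 1.23-fold lower, from 73.5 and 79.3 CPM to 63.4, 63.1 and 59.2 CPM (-0.30 ± 0.09, adjusted p = 0.0154). The call for MTO1 was lost without wild-type replicate 1 (0.0559) or 2 (0.154), without knockout replicate 3 (0.0727) and with the replicate block (0.139). GTPBP3 was at 21.0 and 18.3 CPM in wild type and at 17.4, 23.1 and 17.7 CPM in the knockout, which overlapped (-0.03 ± 0.17, adjusted p = 0.880).

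Of the genes that modify the adenosine just after the anticodon, those grouped here were mostly lower, and the deaminase ADAT1 is described below with its relatives. TRIT1 adds the isopentenyl group there, CDK5RAP1 and CDKAL1 add methylthio groups in mitochondria and in the cytosol, and OSGEP is the catalytic subunit of the complex that makes threonylcarbamoyladenosine. Of 5 genes tested 4 fell, none rose and TPRKB missed the threshold, at a median log2 fold change of -0.43. Over all rows 29.8% fell and 30.2% rose. Among other genes tied to this adenosine, from a list read below, TP53RK (0.40 ± 0.12, adjusted p = 0.0142) and TRMO (0.50 ± 0.14, 0.0118) rose. YRDC (0.08), LAGE3 (-0.22) and OSGEPL1 (-0.19) did not pass. CDKAL1 fell 1.57-fold, from 88.5 and 81.2 CPM to 59.3, 45.0 and 57.2 CPM (-0.65 ± 0.13, adjusted p = 0.00187). TRIT1 fell 1.38-fold, from 51.9 and 50.4 CPM to 37.7, 35.9 and 37.6 CPM (-0.46 ± 0.09, adjusted p = 0.00203). Every knockout library lay below both wild-type libraries in these genes, and their calls held in each setting tried.

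OSGEP was at 40.0 and 34.5 CPM in wild type and at 26.5, 29.9 and 26.6 CPM in the knockout, 1.35-fold lower (-0.43 ± 0.11, adjusted p = 0.00936), and at -0.32 without wild-type replicate 1 (0.134). Its partner TPRKB was at 56.6 and 53.4 CPM in wild type and at 64.5, 43.4 and 61.2 CPM in the knockout (0.04 ± 0.16, adjusted p = 0.840), with only knockout replicate 2 below wild type. Without that library TPRKB was higher at 0.19 (adjusted p = 0.0169). CDK5RAP1 was 1.16-fold lower (-0.22 ± 0.08, adjusted p = 0.0413), a call lost in 9 of 14 settings, among them without wild-type replicate 1 or 2 and without knockout replicate 1 or 3 (adjusted p = 0.103 to 0.223).

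Pseudouridine synthases were higher or did not pass. Of 6 genes tested 4 rose and none fell, with a median log2 fold change of 0.40, where 30.2% of all rows rose and 29.8% fell. Of synthases in another list read below, RPUSD4 rose (0.35 ± 0.10, adjusted p = 0.0152). RPUSD1, RPUSD2, RPUSD3, PUSL1 and PUS7L did not pass (-0.23 to 0.26). TRUB2, a mitochondrial pseudouridine synthase, was at 44.3 and 45.5 CPM in wild type and at 83.0, 104 and 88.1 CPM in the knockout, a 2.04-fold rise (1.03 ± 0.12, adjusted p = 9.57e-05). Its relative TRUB1, which acts in the T loop, was 1.33-fold higher (0.42 ± 0.12, adjusted p = 0.0165), PUS3 1.42-fold (0.51 ± 0.14, 0.0109) and PUS1 1.31-fold (0.39 ± 0.13, 0.0253). PUS7 (0.02 ± 0.08) and PUS10 (-0.24 ± 0.17) had adjusted p values of 0.838 and 0.246. The smaller rises were less firm. TRUB1 lost its call without wild-type replicate 1 (0.0706) or 2 (0.141), without knockout replicate 3 (0.064) and with library totals (0.179). PUS1 lost it without wild-type replicate 1 (0.0766) or 2 (0.189) and with library totals (0.275), and PUS3 without wild-type replicate 2 (0.138) and with library totals (0.0953).

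Dihydrouridine synthases, which reduce uridines of the D loop and variable loop, fell or did not pass. Of 4 genes 3 fell, with a median log2 fold change of -0.38, where 29.8% of all rows fell. DUS4L was at 15.9 and 17.0 CPM in wild type and at 10.2, 8.55 and 10.1 CPM in the knockout, a 1.70-fold fall (-0.76 ± 0.15, adjusted p = 0.00181). DUS3L was 1.32-fold lower (-0.40 ± 0.14, 0.0298) and DUS1L 1.28-fold lower (-0.36 ± 0.13, 0.0431), while DUS2 was at 0.10 ± 0.12 (0.507). The DUS3L and DUS1L calls were lost without any 1 of wild-type replicates 1 and 2 and knockout replicates 1 and 3, at adjusted p values of 0.0643 to 0.146 for DUS3L and 0.0761 to 0.230 for DUS1L.

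The adenosine deaminases that make inosine differed among themselves. ADAT2 and ADAT3 form the enzyme of the wobble adenosine, and ADAT1 acts on the adenosine after the anticodon of tRNA-Ala. ADAT3 was the scarcest member, at 1.21 and 1.12 CPM in wild type and at 3.005, 4.03 and 3.01 CPM in the knockout, a 2.81-fold rise (1.49 ± 0.35, adjusted p = 0.00512) from 7 and 6 raw counts. ADAT2 was at 6.04 and 5.60 CPM in wild type and at 6.63, 6.997 and 6.09 CPM in the knockout (0.17 ± 0.19, adjusted p = 0.471). The log2 ratio of ADAT2 to ADAT3 counts was 2.24 and 2.23 in wild type against 1.14, 0.79 and 1.01 in the knockout, 1.26 lower. ADAT1 was at 8.97 and 12.3 CPM in wild type and at 6.85, 6.81 and 6.97 CPM in the knockout, a 1.54-fold fall (-0.62 ± 0.18, adjusted p = 0.0135). Without wild-type replicate 2, ADAT3 was at 1.44 (adjusted p = 0.051) and ADAT1 at -0.38 (0.195). QTRT1, the catalytic subunit that inserts queuine at the wobble guanosine, was at 0.25 ± 0.16 (adjusted p = 0.202). ADAT1 and CTU2 lie on chromosome 16 beyond 74 Mb, a stretch chosen after its values were seen, where 42 of 88 rows rose, 16 fell and the median was 0.34.

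THG1L, which adds the extra guanosine at the end of tRNA-His, was at 10.2 and 8.03 CPM in wild type and at 24.6, 23.3 and 24.2 CPM in the knockout (ENST00000231198, GRCh38 chromosome 5, 157731197 to 157741448, plus strand, 6 exons). Both wild-type libraries lay below all 3 knockout libraries, and THG1L rose 2.63-fold (1.40 ± 0.15, adjusted p = 4.78e-05), the smallest adjusted p among the rises.

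The count ratio of partner genes was compared for 7 chosen pairs, of which 6 are reported. Other partners, such as TRMT11 with TRMT112 and GTPBP3 with MTO1, were not compared. An exact two-sided permutation test over 2 and 3 libraries cannot give a p below 0.1, so no pair could pass. ELP5 with ELP6 and ADAT2 with ADAT3 were at that limit (adjusted p = 0.233 over the 7 pairs), with ratios that changed by -1.70 and -1.26 on the log2 scale. TRMT6 with TRMT61A changed by 0.76 (exact p = 0.2) and OSGEP with TPRKB by -0.44 (exact p = 0.3). METTL1 with WDR4 changed by -0.05 (exact p = 0.8) and CTU1 with CTU2 by -0.12 (exact p = 0.7), with overlapping groups and wild-type SDs of 0.31 and 0.39.

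**Figure D4:**
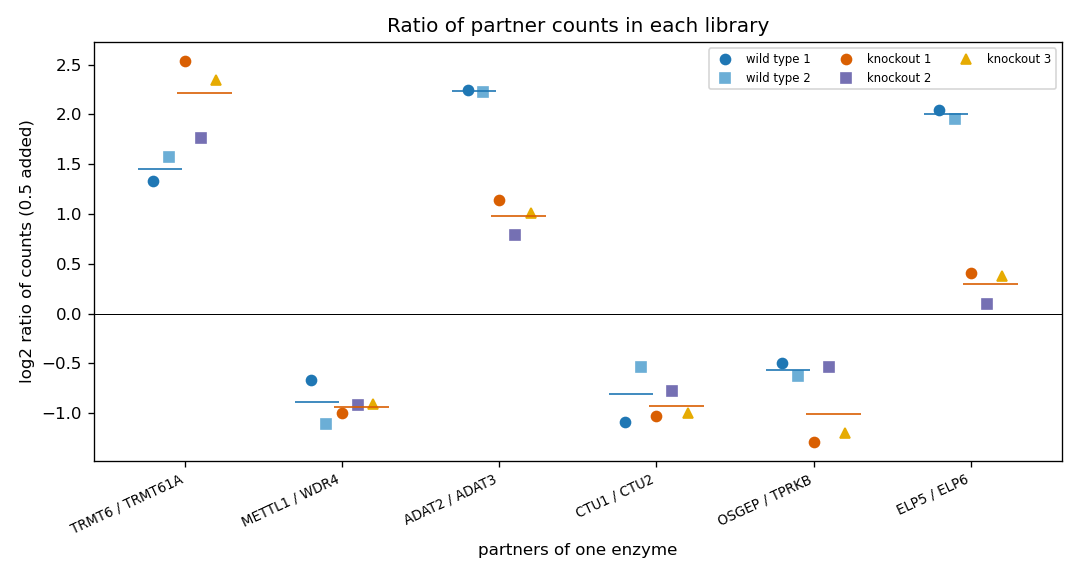
Log2 ratio of the raw counts of 2 partners in each library (y axis, 0.5 added to each count) for 6 pairs; short lines are group means. The ELP5 to ELP6 ratio lies at 2.05 and 1.95 in wild type and at 0.10 to 0.41 in the knockout, while the METTL1 to WDR4 ratio overlaps.

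A list of 10 members known mainly for mitochondrial tRNAs (TRMT2B, TRMT10C, TRMT61B, TRMU, METTL8, NSUN3, CDK5RAP1, GTPBP3, MTO1 and TRUB2) was read separately. It leaves out enzymes that act on tRNAs of both compartments, such as PUS1 and TRMT5, which rose, TRIT1, which fell, and NSUN2, which missed the threshold. Of the 10, 6 rose, 2 fell and 2 missed the threshold, where 30.2% of all rows rose and 29.8% fell. The median log2 fold change of the list was 0.46, with a range of -0.30 to 1.60. The other 46 members gave 13 rises, 13 falls and a median of 0.05. The difference between these lists was not tested. NSUN3, METTL8 and TRUB2 of this list rose at least 2-fold, TRMU, TRMT10C and TRMT61B rose less, and MTO1 and CDK5RAP1 were lower.

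Promoter sequences of 47 members were found in RefSeq (GRCh38.p14, 250 bases before to 50 after the start given there). That start need not be the start of the counted transcript. In these sequences 6 short motifs chosen with the results known were searched on both strands. The ETS-type motif CCGGAAG was present in 14 of 47, or 29.8%, against 10.3% of 35116 promoters of all kinds of gene. TGACGTCA was present in 5, or 10.6%, against 1.85%. The 35116 were not limited to genes tested here, as the members were, so these shares are not like for like. Among members, CCGGAAG was in 6 of 15 that rose, 2 of 12 that fell and 6 of 20 that did not pass. CACGTG (8.51% against 7.26%), the NRF1 motif (10.6% against 8.32%), TGATGNAA (4.26% against 3.62%) and CCAAT (27.7% against 34.6%) were at nearer shares. Each motif was searched on its own, so matches of different motifs may overlap, and a match is a description of letters only. The promoters of the 2 rises and of the fall with the smallest adjusted p outside the ELP3 stretch are shown, with matched motifs in capitals. They lie at chr5:157731170-157731469, chr3:94062811-94063110 and chr17:7252176-7252475, all on the plus strand. The counted transcripts of THG1L, NSUN3 and ELP5 start at 157731197, 94062916 and 7252053. Most of the THG1L and NSUN3 windows and the whole ELP5 window therefore lie inside the counted transcript. The fall with the next smallest adjusted p, DUS4L, held none of the 6 motifs and is not printed.
THG1L: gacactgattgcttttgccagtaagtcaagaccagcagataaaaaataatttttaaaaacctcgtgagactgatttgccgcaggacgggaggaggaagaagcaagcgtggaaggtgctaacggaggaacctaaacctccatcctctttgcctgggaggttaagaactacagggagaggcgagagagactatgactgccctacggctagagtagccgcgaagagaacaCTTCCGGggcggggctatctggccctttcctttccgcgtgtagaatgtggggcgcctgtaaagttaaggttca
NSUN3: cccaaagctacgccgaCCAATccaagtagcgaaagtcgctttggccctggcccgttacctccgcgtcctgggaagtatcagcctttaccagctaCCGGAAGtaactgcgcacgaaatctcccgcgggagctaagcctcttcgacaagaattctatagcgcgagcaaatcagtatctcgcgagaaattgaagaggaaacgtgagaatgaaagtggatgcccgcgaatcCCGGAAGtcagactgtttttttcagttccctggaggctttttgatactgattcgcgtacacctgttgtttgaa
ELP5: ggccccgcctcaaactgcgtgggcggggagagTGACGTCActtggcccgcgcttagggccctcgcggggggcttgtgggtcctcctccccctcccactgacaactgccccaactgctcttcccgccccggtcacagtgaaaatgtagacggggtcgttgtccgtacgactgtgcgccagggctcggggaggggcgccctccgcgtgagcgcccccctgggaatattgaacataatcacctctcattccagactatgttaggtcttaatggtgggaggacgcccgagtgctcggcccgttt
NSUN3 holds CCGGAAG at 2 places, THG1L at 1 on the other strand, and ELP5 holds a single TGACGTCA.

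Knockout replicate 2 differed from the other knockout libraries in a way that moved with base composition. It was the highest knockout library in 25 members, with a median coding GC content of 55.7%, and the lowest in 27, with a median of 43.4%. The deviation of replicate 2 from the mean of replicates 1 and 3 ran from -0.53 to 0.63 on the log2 scale and was correlated with coding GC content over the 56 members (Pearson r = 0.88) and over 11158 rows (r = 0.60). These points share the same 3 libraries, and genes are not independent replicates. The log2 fold change between genotypes was weakly correlated with GC content (r = 0.14 over members and -0.11 over all rows). Without replicate 2 the members gave 24 rises and 17 falls, adding TPRKB, TRMT1L, TRMT13, NSUN6 and ALKBH8 as rises and FTSJ1 and TRMT61A as falls and losing none.

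**Figure D5:**
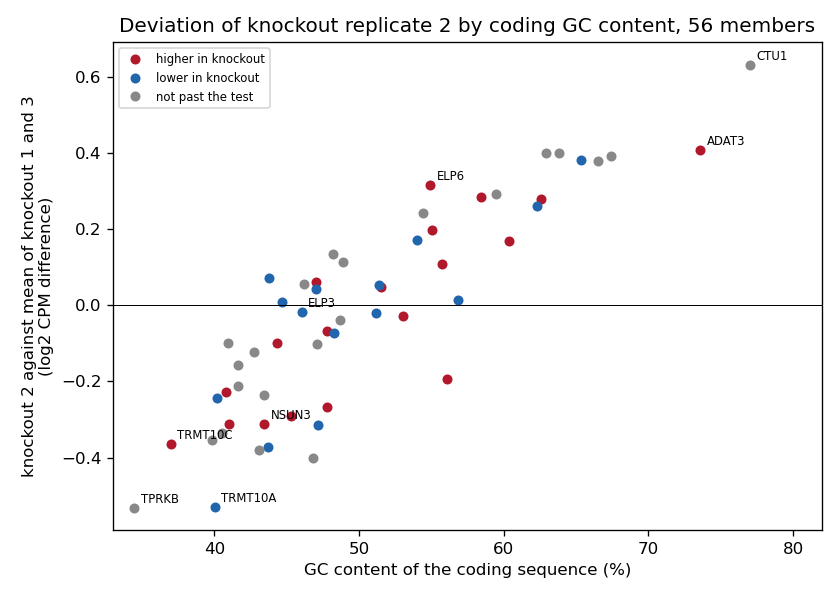
Log2 CPM of knockout replicate 2 minus the mean of replicates 1 and 3 (y axis) against GC content of the coding sequence in percent (x axis) for the 56 members, coloured by call. Values run from -0.53 for TPRKB to 0.63 for CTU1.

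Other genes of tRNA biology, from lists written with earlier results known, were read from the same fit. Of 33 other modification factors 13 rose and 4 fell, with a median of 0.26. DPH3, which supports Elongator and diphthamide synthesis, fell from 33.6 and 31.0 to 17.2, 12.6 and 17.4 CPM (-1.03 ± 0.16, adjusted p = 4.79e-04). MOCS3, which activates URM1, rose from 8.62 and 7.09 to 16.9, 18.9 and 15.3 CPM (1.11 ± 0.17). KIAA1456, an older symbol of a methyltransferase related to ALKBH8, had 1.55 and 2.05 CPM in wild type and 0.0366, 0.248 and 0.0339 CPM in the knockout, and it lies on the same stretch of chromosome 8 as ELP3.

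Of 26 genes of tRNA end processing and splicing 16 rose and 2 fell, with a median of 0.41. The falls were TSEN15, a subunit of the tRNA splicing endonuclease, from 169 and 181 to 50.6, 54.0 and 54.2 CPM (-1.73 ± 0.08), and XPOT, the tRNA export receptor, from 395 and 393 to 226, 213 and 213 CPM (-0.86 ± 0.07). FAM98A, a relative of the tRNA ligase subunit FAM98B, rose from 44.0 and 49.3 to 144, 143 and 154 CPM (1.66 ± 0.10). Of 26 genes of RNA polymerase III and its factors, which transcribe tRNA genes, 12 rose and 6 fell, with a median of 0.25. The polymerase subunit POLR3K rose from 53.5 and 54.7 to 91.4, 94.5 and 92.4 CPM (0.78 ± 0.09), GTF3C1, a subunit of the factor TFIIIC, rose (0.48 ± 0.08), and GTF3A, the factor for 5S RNA genes, fell from 54.7 and 50.2 to 28.0, 22.7 and 29.9 CPM (-0.96 ± 0.13). As among the members, both directions occurred in each list, against 30.2% rising and 29.8% falling over all rows.

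Shared sequence limits single values for 14 members, in which more than 1% of the 30-base windows also occur in another annotated gene, and 41 members shared no window. Beside the pairs named above, the shares were 12.1% for THUMPD1, 11.0% for ADAT1 and 8.01% for TRMT11. Of the 34 members past the test, 19 kept their call in every alternative run that tested them, among them 17 of the 20 with at least a 1.5-fold change.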

How the data were processed

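Ribosome-protected fragments of 28 to 32 nt from HAP1 cells (2 wild-type and 3 ZCCHC4 knockout libraries) were deposited by the authors as raw, unnormalized counts, with a transcript identifier and symbol on each row. Bowtie (version not given) and hg38 are named in the submitters' processing notes. For the counting tool, annotation, strand, duplicate removal and multiply mapping reads, the method is not given in the sources used here. The header line was shifted by 1 cell, and columns were assigned by name after that shift. Transcripts were matched to GENCODE 29 (GRCh38).

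All rows entered one edgeR 4.0.16 fit in R 4.3.3 (TMM; filterByExpr at a minimum count of 10; glmQLFit, glmQLFTest; genotype alone as the term), p-values were adjusted by Benjamini-Hochberg over 11205 rows at a threshold of 0.05, and members were read from that fit. The SE is approximate, the log2 fold change divided by the square root of F. Alternatives were other scalings and filters, DESeq2 1.42.0, thinned counts, summed wild-type libraries, a replicate block and leaving out each library. Counts were simulated for 11205 genes, of which 200 were changed, at a dispersion of 0.01 in every library. The fit recovered 14%, 54%, 80% and 96% of genes changed 1.25-, 1.5-, 2- and 4-fold, and called 8 unchanged genes. In the data 60% of rows passed and knockout replicate 2 lay apart, so these rates need not hold for these libraries.

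The members, gene lists, tests and alternatives were chosen with earlier results of these data known. Values in every library are given for members past the test with at least a 1.5-fold change and for the partners of a complex reported here, and up to 3 genes of each other list with the smallest adjusted p. Same-numbered libraries deviated with correlations of -0.05 and -0.05 between genotypes. The deviations of 2 wild-type libraries from their mean mirror each other, so this check cannot exclude pairing. The labels name no pairing, and the main fit used none. PCR-amplified footprints are not independent molecules. One member is counted in every total, but its own values are not reported here.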

Additional observations from a re-analysis of the deposited data

How the results depend on the processing

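With 1 wild-type library left out, the remaining one was assumed to vary like the knockout libraries. No called member changed sign in any alternative, 15 of 34 lost their call in at least 1, and 10 of 22 uncalled members gained a call in at least 1. Over the alternatives that leave out 1 library, the members gave 12 to 24 rises and 9 to 17 falls, fewest without wild-type replicate 2 (12 and 9) and, for falls, also without wild-type replicate 1 (9). Their median log2 fold change ran from 0.039 to 0.098. It was 0.013 with upper-quartile scaling, -0.14 with library totals, 0.12 with no filter, -0.018 at a mean count of at least 50 (where ADAT3 was not tested), 0.019 with counts thinned to the smallest library, and 0.099 with the replicate block. It was 0.18 after a spline fit on coding length and GC content, an alternative chosen after seeing the data, where the median of all rows was 0.09. The replicate block gave 15 rises and 11 falls, where 54.4% of all rows passed. It lost TRUB1, TRMT61B, DUS1L, CDK5RAP1, ELP2, URM1, TRMT44 and MTO1. The labels do not say whether the numbers pair the libraries. With the wild-type libraries summed, the median log2 fold change of the members was 0.076.

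Among members reported here, only uncalled ones turned sign. With upper-quartile scaling NSUN2 was at -0.010, TPRKB -0.025, PUS7 -0.043 and TRMT2B -0.021. At a mean count of at least 50 NSUN2 was at -0.018, TPRKB -0.030, PUS7 -0.050 and TRMT2B -0.030. With library totals ADAT2 was at -0.050, NSUN2 -0.17, TPRKB -0.18, PUS7 -0.20, CTU1 -0.051, TRMT2B -0.18 and DUS2 -0.12. With no filter GTPBP3 was at 0.0093 and TRDMT1 0.011. With thinned counts ADAT2 was at -0.077, PUS7 -0.060 and TRMT2B -0.020. With the replicate block TPRKB was at -0.047 and GTPBP3 0.024. Leaving out 1 library, the range was CTU1 -0.052 to 0.40, GTPBP3 -0.17 to 0.076, PUS7 -0.014 to 0.059, THUMPD1 -0.17 to 0.038, TPRKB -0.072 to 0.19 and TRDMT1 -0.16 to 0.065. The change in the METTL1 to WDR4 ratio ran from -0.28 to 0.17 and in the CTU1 to CTU2 ratio from -0.39 to 0.16. At 6 and 7 raw counts in wild type, depth limits ADAT3 most.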
